A study of Daphnia magna with 16 samples.

Results

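Tryptophan 2,3-dioxygenase (TDO2) and kynurenine formamidase were followed by 1 array probe each, 2 of the 51424 gene probes on the array. The probes were chosen because the study's supplement names them, CUST_19559_PI429715507 (gene model Dapma7bEVm027661) as tryptophan 2,3-dioxygenase and CUST_4536_PI429715507 (gene model Dapma7bEVm005667) as kynurenine formamidase-like isoform X1. Total RNA of single whole *Daphnia magna* females was hybridised to 16 Agilent one-colour arrays, 4 animals for each of 4 clones. The mutants carried CRISPR/Cas9 insertions or deletions in the tryptophan hydroxylase gene (TRH). T+ (clone 13 in the labels, +/-) was mutated in 1 allele, and clone 16 and clone 17 (both -/-, TA- and TB- in the paper) were mutated in both. The wild type (W, clone F, +/+) is the clone from which the 3 mutants were derived. T+, clone 16 and clone 17 were each 1 clonal line, so in each the mutation cannot be told apart from other features of the line. All animals were untreated. The labels give their age as 5 days in one field and 4 days in another, and the methods describe adult females, de-brooded at the end of a reproduction test. The animals of a clone were numbered 3, 5, 7 and 9 in the labels, which do not say what the number marks.

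Besides protein synthesis, tryptophan feeds competing routes. TRH turns it into the precursor of serotonin, whereas TDO2 opens its indole ring and gives N-formylkynurenine, from which kynurenine formamidase removes the formyl group to leave kynurenine. In vertebrates the kynurenine route takes most of the tryptophan that is broken down, and in insects it also supplies the eye pigments called ommochromes. TRH and the serotonin enzymes were not analysed here, since the sources used give no probe for them. No other probe of the kynurenine route was named either, so both steps rest on 1 spot per array.

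The study also designed primers for its own PCR, listed under the names tryptophan 2,3-dioxygenase A and kynurenine formamidase. They are not the array probes, whose letters were not used here. Whether they lie in the same gene models as the 2 probes was not checked. Written 5′ to 3′, each primer has 20 bases.
TDO2 forward: cgattctgcgaagagggttg
TDO2 reverse: gccgcgtaaacacattccac
Kynurenine formamidase forward: ggaaaatgaccctcccgagt
Kynurenine formamidase reverse: tgaacatccgtgaatccagc

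Both probes were dim. The scanner software marks a spot as well above background when its signal clearly exceeds that of the array's blank areas, and the 95th percentile of 2840 negative control spots gives a second measure of background. That percentile was 31.8 to 58.6 units of processed signal on 15 arrays, and 129 on the array of W replicate 7, which stood apart. This array had 9906 probes well above background, against 11220 to 14688 on the other 15, and its file had no scanner header. Where a spot was not significantly above its local background, its processed signal did not follow the measured spot (r between -0.05 and 0.14 on the 16 arrays, across spots), and it is only a stand-in for the background level.

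TDO2 was well above background in 5 of the 16 animals, all of them mutants. These were 3 of the 4 animals of clone 16, 1 of T+ and 1 of clone 17, and none of W. In T+, the processed signal of replicates 3, 5, 7 and 9 was 14.3, 117, 11.96 and 17.1 units. In clone 16 it was 108, 148, 35.2 and 90.8 units. In clone 17 it was 12.6, 90.9, 11.98 and 15.7 units, and in W 12.8, 14.8, 39.8 and 10.3 units. Replicate 5 was thus bright in every mutant clone, whereas replicates 3 and 9 were bright in clone 16 only. Replicate 7 of clone 16 and replicate 9 of clone 17 carried the scanner's weaker mark, for a signal significantly above the local background, but lay below the negative control percentile, at 0.92 and 0.372 times its value. The 39.8 units of W replicate 7 were 0.309 times the percentile of that array, a ratio like those of the other W animals (0.237 to 0.323). The 5 bright spots lay at 1.73 to 2.83 times the percentile of their arrays.

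Kynurenine formamidase was well above background in 2 animals, T+ replicate 5 and clone 16 replicate 5. In T+, the processed signal of replicates 3, 5, 7 and 9 was 15.6, 131, 11.3 and 18.0 units. In clone 16 it was 24.6, 153, 9.50 and 26.1 units. In clone 17 it was 11.96, 20.8, 11.5 and 15.9 units, and in W 14.5, 16.2, 37.0 and 9.83 units. Both bright animals were also bright for TDO2, and of the 5 animals with TDO2 signal the other 3 had formamidase signals of 20.8 to 26.1 units, below the negative control percentile. The scanner's weaker mark was set for these 3.

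The counts of animals with signal are too small for Fisher's exact test to pass the threshold in the direction seen. With no signal in any W animal, the p-values are already the smallest that these counts allow in that direction. TDO2 was well above background in 5 of 12 mutants and 0 of 4 W (two-sided exact p = 0.245). For clone 16 alone the counts were 3 of 4, against 0 of 4 in W (exact p = 0.143). For kynurenine formamidase they were 2 of 12 mutants and 0 of 4 W (exact p = 1). The marks and the negative control percentile picked the same animals for both probes. Of the 51423 other probes on the array, 31 were well above background in exactly the 5 animals of TDO2, and 69 in exactly the 2 of kynurenine formamidase.

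**Figure D1:**
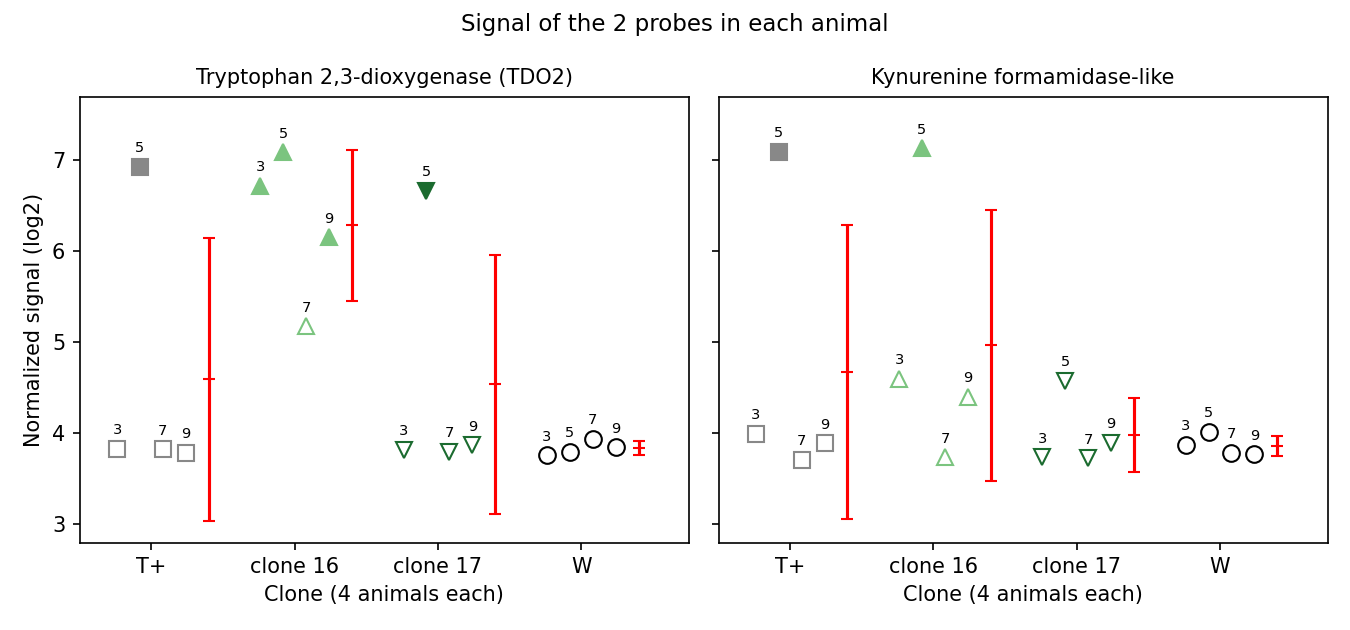
Normalized signal (log2) of TDO2 and of the kynurenine formamidase probe in each animal, by clone, with the replicate number above each point. Filled symbols are well above background and open symbols are not, and red bars give the clone's mean ± SD (n = 4). TDO2 is filled in 3 animals of clone 16 and in replicate 5 of T+ and of clone 17, kynurenine formamidase in replicate 5 of T+ and of clone 16, and all W symbols are open.

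After quantile normalization, TDO2 averaged 4.59 ± 1.56 in T+, 6.28 ± 0.83 in clone 16, 4.54 ± 1.42 in clone 17 and 3.84 ± 0.077 in W on the log2 scale (SD, n = 4 each). The 4 animals of clone 16 had 6.72, 7.09, 5.18 and 6.15 (replicates 3, 5, 7 and 9), against 3.76, 3.80, 3.94 and 3.85 in W, so the 2 clones did not overlap. Of all tested probes, 8.02% had all 4 clone 16 arrays above all 4 W arrays. In T+ the values were 3.83, 6.93, 3.83 and 3.78, and in clone 17 they were 3.82, 6.67, 3.80 and 3.87. Apart from replicate 5, T+ and clone 17 lay within the W range.

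TDO2 passed the filter for testing, since it exceeded the negative control percentile on at least 4 arrays, 3 of which were those of clone 16. It was called in none of the comparisons by limma, where calls needed adjusted p-values under 0.05 together with a 1.5-fold change. Clone 16 exceeded W by 2.45 ± 0.75 (SE, log2; 6.28 in clone 16 and 3.84 in W; limma adjusted p = 0.146). Among the 17286 tested probes, 0.127% were called higher in clone 16. The study chose both probes on these arrays, where its supplement holds them on a sheet of increases in clone 16 and also on a sheet named for decreases in T+, so the comparison is no independent evidence of a direction. The supplement prints values that equal the deposited ones on every array (within 0.001 on the log2 scale) for 320 of 334 probes, but not for these. They differ on 6 of 16 arrays for TDO2 and on 3 for kynurenine formamidase, and the deposited values were used here. Since no W animal was well above background, the W level has only a bound. TDO2 was at least 2.03-fold higher in clone 16 when the mean of its 4 arrays, 3 of which measured the probe, was set against the mean over W arrays of the lowest normalized signal marked well above background. That level is a convention and no strict ceiling, since single spots above it can be unmarked, as TDO2 was in clone 16 replicate 7. The exact permutation test of this probe alone gave p = 0.0286, the smallest that 4 against 4 animals allow, and 0.286 after adjustment over the 10 comparisons of the 2 probes. The limma result depended on the arrays of other clones. Without T+ replicate 5 the adjusted p was 0.0329, and with only clone 16 and W in the model it was 0.0141. With the animals' number as a block, over all 16 arrays, it was 0.0357. Without W replicate 7 the difference was 2.48 (adjusted p = 0.201).

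T+ exceeded W by 0.76 ± 0.75 (SE, log2; adjusted p = 0.741), where 0.318% of the tested probes were called higher. Clone 17 exceeded W by 0.70 ± 0.75 (adjusted p = 0.860), where 0.0347% were called higher. Both differences came from replicate 5. Without that animal the difference was -0.024 for T+ and -0.0073 for clone 17, and no fold against the W background limit can be given for either clone.

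The bi-allelic clones together exceeded T+ by 0.82 ± 0.65 (SE, log2; adjusted p = 0.657), with 0.0231% of the tested probes called higher. Clone 16 exceeded clone 17 by 1.75 ± 0.75 (6.28 in clone 16 and 4.54 in clone 17; adjusted p = 0.273), where 1 probe, 0.00579%, was called higher. Without clone 17 replicate 5 this difference was 2.46 (adjusted p = 0.0329). In the animals not numbered 5, clone 16 had 5.18 to 6.72 and clone 17 had 3.80 to 3.87.

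Kynurenine formamidase exceeded the negative control percentile on 2 arrays and was left out of the tests. It averaged 4.67 ± 1.62 in T+, 4.97 ± 1.49 in clone 16, 3.98 ± 0.40 in clone 17 and 3.86 ± 0.11 in W (log2, SD, n = 4 each). The animals of T+ had 4.00, 7.09, 3.71 and 3.89, those of clone 16 had 4.60, 7.13, 3.74 and 4.40, those of clone 17 had 3.74, 4.57, 3.73 and 3.89, and those of W had 3.87, 4.01, 3.79 and 3.77. Every mutant clone overlapped with W. The log2 differences were 0.81 for T+, 1.11 for clone 16 and 0.12 for clone 17, each against W. In a fit without the filter the adjusted p-values were 0.872, 0.763 and 0.978 (limma), and exact permutation tests gave 0.514, 0.143 and 0.857. Without clone 16 replicate 5 the difference of clone 16 was 0.39, and without T+ replicate 5 that of T+ was 0.0043.

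The animals with TDO2 signal lay on both slides, among arrays where the slide is known. Clone 16 exceeded W in TDO2 by 2.84 on slide 1 (2 arrays each) and by 2.10 on slide 2 (2 arrays of clone 16 and 1 of W). The bright T+ animal was on slide 2, where T+ exceeded W by 1.53, against 0.027 on slide 1. The bright clone 17 animal was on slide 1, where the difference was 1.49, against -0.040 on slide 2. For kynurenine formamidase, clone 16 exceeded W by 1.82 on slide 1 and by 0.40 on slide 2.

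The 2 probes were bright in some of the same animals, but not in proportion. In the 8 animals of T+ and clone 17, without the clone for which the study lists the probes as higher, Pearson's r was 0.84 (exact permutation p = 0.00541, adjusted p = 0.0216 over 4 coefficients) and Spearman's rho was 0.76 (exact p = 0.0368, adjusted p = 0.0735). Of these animals only T+ replicate 5 had formamidase well above background. The p-values thus draw on the order of values at or near background, and no relation was concluded from them. The study's supplement also holds both probes on a sheet named for decreases in T+, so these animals are not free of its choice. The coefficients rested on the replicates numbered 5. Without these 2 animals r was 0.23 (exact p = 0.653) and rho 0.43 (exact p = 0.419), with no signal well above background. Over the 12 mutants r was 0.77, and 0.81 after each clone was centred on its own mean. In the 5 mutants with TDO2 well above background, its values lay between 6.15 and 7.09. Their formamidase values were 7.09 and 7.13 in the 2 bright animals and 4.40 to 4.60 in the other 3, below the negative control percentile.

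**Figure D2:**
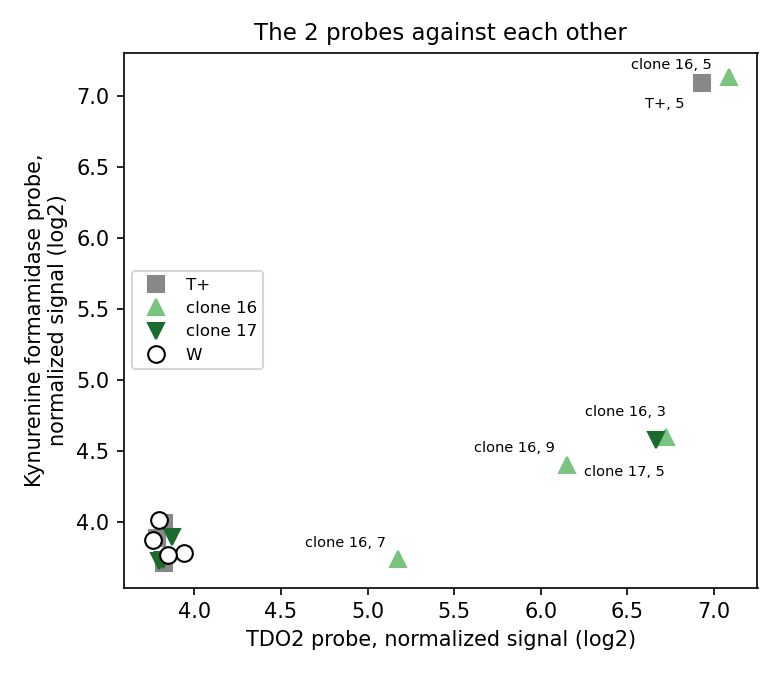
Normalized signal (log2) of the kynurenine formamidase probe against that of TDO2 in the 16 animals, by clone. The 4 W animals and 6 mutants sit together at the background, and clone 16 replicate 7 has TDO2 at 5.18, not well above background. TDO2 is well above background with formamidase at 4.40 to 4.60 in 3 mutants, and T+ replicate 5 and clone 16 replicate 5 have both at about 7.

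The animals with TDO2 signal were among those that stood apart across the array. The first principal component of the 17269 other probes, over the 12 mutants, held 76.7% of their variance and separated 6 animals from 6. The scores were 77.4 to 107 in the 4 animals of clone 16, 90.9 in T+ replicate 5 and 96.1 in clone 17 replicate 5, and -104 to -59.7 in the other 6 mutants. TDO2 correlated with these scores at r = 0.95 and was not well above background in any animal with a negative score. On the second component, with 8.97% of the variance, T+ replicate 5 (68.2) and clone 16 replicate 5 (54.6) were the highest, all other mutants lying at 9.88 or below. Kynurenine formamidase correlated at r = 0.76 with the second component and 0.59 with the first. The sign of a component is arbitrary. It was set so that clone 16 scored positive on the first and formamidase rose with the second. The part that whatever separates these arrays has in the signal of the 2 probes was not tested.

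**Figure D3:**
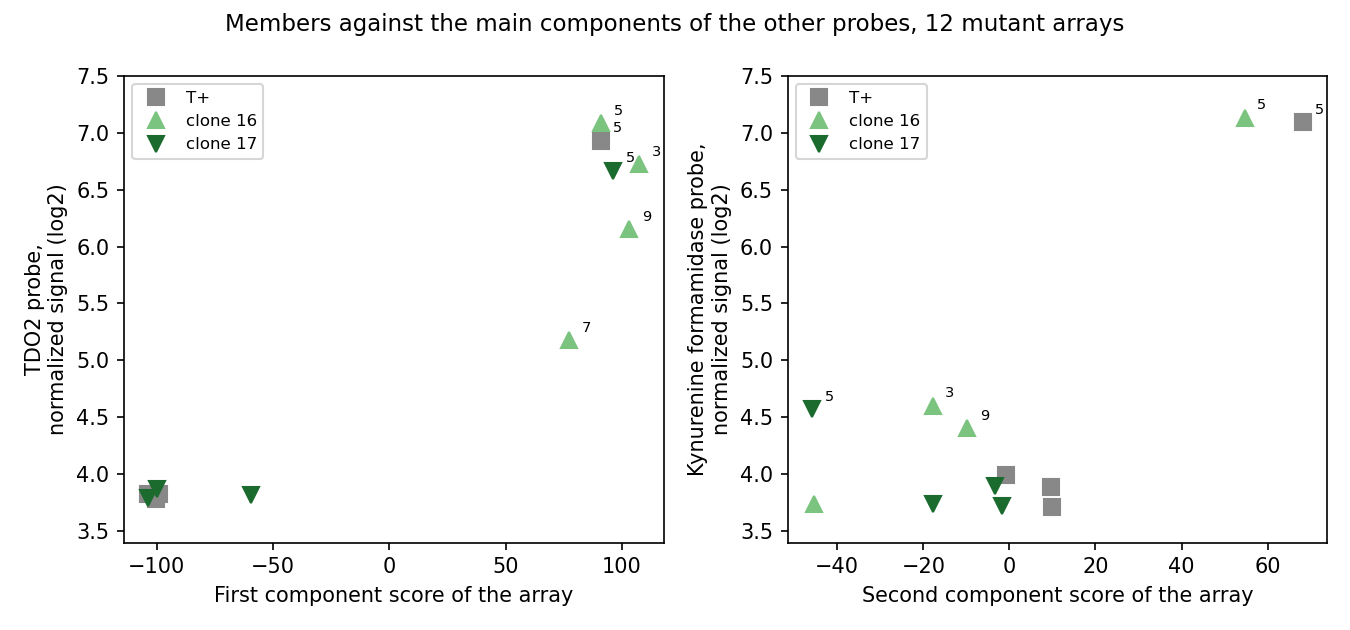
TDO2 against the first component score (left) and the kynurenine formamidase probe against the second component score (right) in the 12 mutants, both signals normalized on the log2 scale, with replicate numbers at the points above 4.3. TDO2 is at background in the 6 animals with a negative first score, and the 2 animals with formamidase signal have the highest second scores, 54.6 and 68.2.

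TDO2 had many followers. The comparison covered 17269 other probes that passed the filter and had no missing array. Of these, 926 (5.36%) had r with TDO2 of at least 0.9 over the 12 mutants, and 764 (4.42%) had r of -0.9 or below. The median r was 0.047. Of the 926, 705 also had r of at least 0.9 with the first component, and of the 764, 680 had r of -0.9 or below with it, so most of these probes followed the division of the animals as well as TDO2. The 12 arrays fall into separate sets, and r is given as a description. Within the 6 animals with a positive first score, 311 probes had r of at least 0.9 and 190 had r of -0.9 or below. An r of this size is reached more easily with 6 arrays than with 12, so the counts cannot be compared. Kynurenine formamidase had 120 probes (0.695%) at r of at least 0.9 and 103 (0.596%) at -0.9 or below, and 21 probes were at 0.9 or above with both.

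**Figure D4:**
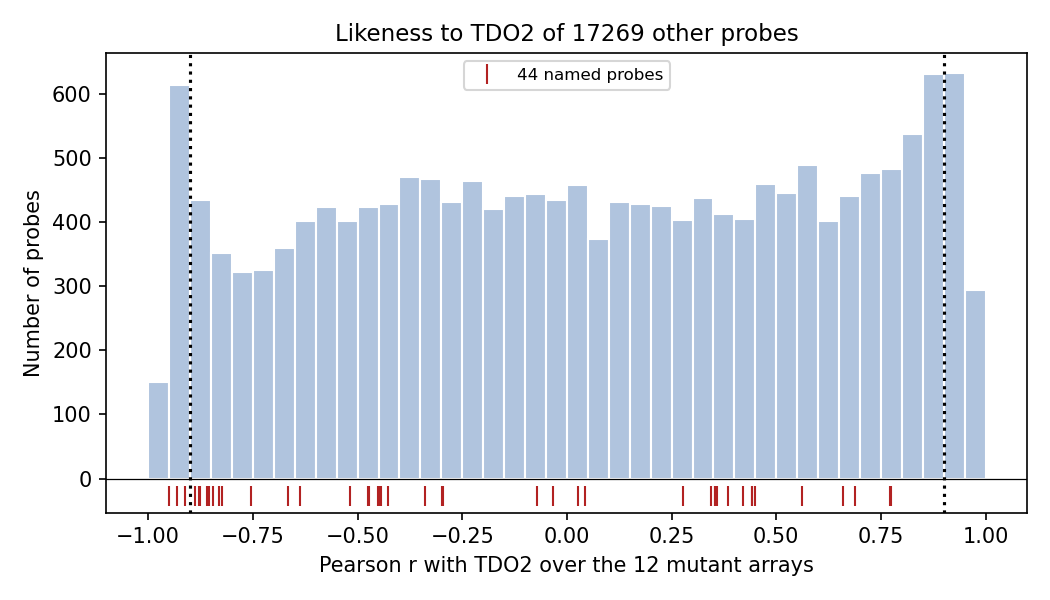
Number of probes by Pearson r with TDO2 over the 12 mutant arrays, for 17269 other probes. Dotted lines mark -0.9 and 0.9, beyond which lie 764 and 926 probes, and red ticks below the axis mark the 44 probes named by the supplement, of which 3 lie beyond -0.9 and 0 beyond 0.9.

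The probes most like TDO2 have no gene name in the sources used here. The highest r was 0.997, for CUST_9188_PI429715507. It read 3.92, 7.01, 3.68 and 3.85 in T+ (replicates 3, 5, 7 and 9), 6.76, 6.97, 5.05 and 6.31 in clone 16, 3.70, 6.91, 3.68 and 3.86 in clone 17 and 3.85, 3.97, 3.76 and 3.74 in W, and was well above background in the same 5 animals as TDO2. The next, CUST_102895_PI429715507 (r = 0.995), was measured well above background on 15 arrays. It averaged 7.21 in T+, 8.53 in clone 16, 7.19 in clone 17 and 6.60 in W, with T+ replicate 5 at 9.09 and clone 17 replicate 5 at 8.71. Over the 12 mutants its Spearman's rho with TDO2 was 0.84. Within the 6 animals with a positive first score, r with TDO2 was 0.98 and 0.99 for these 2 probes.

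The lowest r was -0.99, for both CUST_47338_PI429715507 and CUST_55656_PI429715507. The first averaged 7.33 in T+, 4.60 in clone 16, 7.43 in clone 17 and 7.17 in W, and was at 3.72 in T+ replicate 5 and 4.64 in clone 17 replicate 5. The second was bright everywhere and averaged 12.79 in T+, 11.96 in clone 16, 12.86 in clone 17 and 13.41 in W. In both, the animals with most TDO2 had the least signal.

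Of the 49 other probes that the supplement names for enriched gene groups, 44 were tested, and their median r with TDO2 was -0.32, against 0.047 over all tested probes. None had r of at least 0.9, 3 had r of -0.9 or below and 18 were above 0. The study chose these probes on these arrays, and several belong to the same gene. Over all tested probes 52.5% had r above 0. Of the 15 gene groups with at least 2 such probes, 14 had a median below 0 and 1 above it. In amino sugar metabolism, which makes and breaks the building blocks of chitin, 1 of 7 probes had r above 0 (median -0.64). In lipid biosynthesis 5 of 14 had r above 0 (median -0.44). Among structural constituents of cuticle, the proteins bound to chitin in the exoskeleton, it was 4 of 11 (median -0.30). The medians nearest 0 were those of chitin binding, with 4 of 8 above 0 (median 0.024), and of cellular lipid metabolism, with 5 of 10 (median -0.0040). The groups share probes.

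The 3 highest named probes all belonged to 1 gene model, Dapma7bEVm000199, of hydroxymethylglutaryl-CoA synthase, which makes HMG-CoA, the precursor of the mevalonate route to isoprenoids and, in vertebrate mitochondria, of ketone bodies. The supplement calls one of them mitochondrial and the others synthase 1, but they are probes of the same gene and are not independent. Their r was 0.77 (CUST_87067_PI429715507), 0.77 (CUST_72169_PI429715507) and 0.69 (CUST_5069_PI429715507), and another probe of the gene (CUST_7515_PI429715507) had 0.56. CUST_87067_PI429715507 averaged 8.96 ± 0.24 in T+, 9.47 ± 0.13 in clone 16, 9.15 ± 0.39 in clone 17 and 10.42 ± 0.079 in W (log2, SD, n = 4 each). The likeness to TDO2 held between the sets of mutants and not beyond them. W animals had the highest synthase signal with TDO2 at background, and within the 6 mutants with a positive first score r of the 3 probes was -0.43, -0.67 and -0.87.

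The 3 lowest named probes were oscillin, cuticular protein hypothetical 28 and HMG-CoA reductase. Oscillin (CUST_25449_PI429715507, r = -0.95) is the name in fruit flies of glucosamine-6-phosphate isomerase, an enzyme of amino sugar breakdown. It averaged 13.36 ± 0.28 in T+, 12.86 ± 0.21 in clone 16, 13.32 ± 0.37 in clone 17 and 14.16 ± 0.35 in W (log2, SD, n = 4 each), with 12.96 in T+ replicate 5 and 12.81 in clone 17 replicate 5. Within the 6 animals with a positive first score r was -0.78.

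Cuticular protein hypothetical 28 (CUST_97562_PI429715507, r = -0.93) had the widest range of the 6 named probes. Its signal was 13.22, 7.83, 12.29 and 12.98 in T+ (replicates 3, 5, 7 and 9), 6.84, 6.20, 9.06 and 6.94 in clone 16, 14.5, 9.78, 13.30 and 13.23 in clone 17, and 15.00, 11.77, 11.49 and 14.84 in W. The 6 mutants with TDO2 above 5 were below all other animals, and within these 6 r was -0.44. HMG-CoA reductase (CUST_31810_PI429715507, r = -0.91), the enzyme that follows HMG-CoA synthase in the mevalonate route, was dim. It averaged 5.75 ± 1.30 in T+, 4.19 ± 0.23 in clone 16, 5.91 ± 1.41 in clone 17 and 4.28 ± 0.43 in W, was well above background in 5 mutants and no W animal, and had r of 0.31 within the 6 animals.

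**Figure D5:**
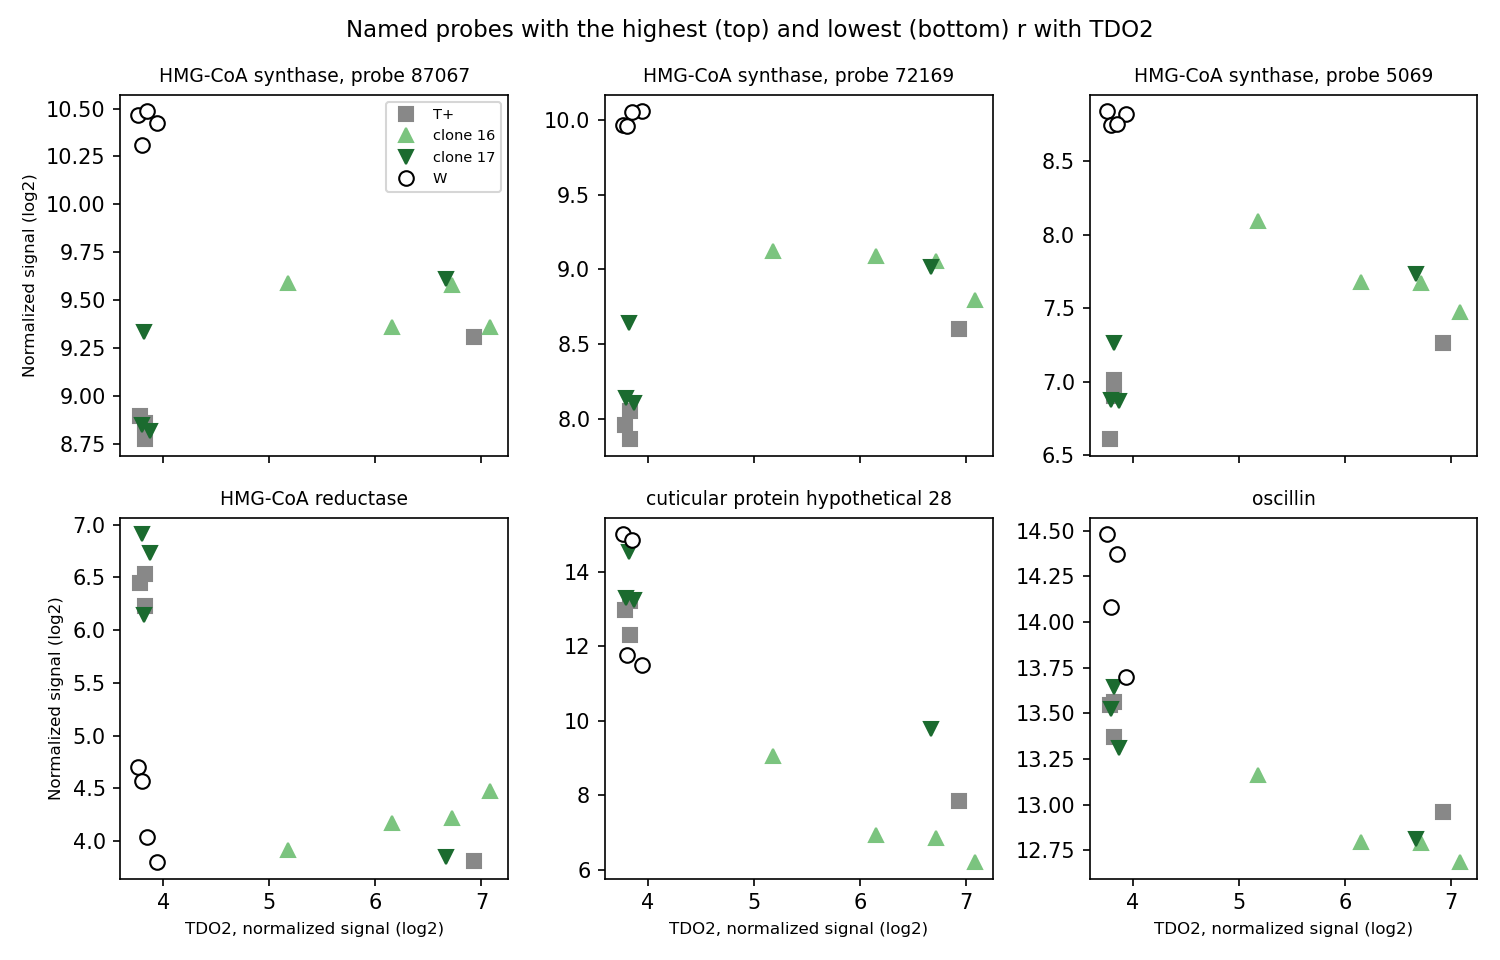
Normalized signal (log2) of 6 named probes against that of TDO2 in the 16 animals, by clone. Top, the HMG-CoA synthase probes, whose W animals (open circles) lie above all mutants. Bottom, HMG-CoA reductase, cuticular protein hypothetical 28 and oscillin, which are lower in the 6 mutants with TDO2 above 5 than in the other 6.

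With kynurenine formamidase, r of the 44 named probes ran from -0.87 to 0.34 and was below 0 for 33. The study's list of probes higher in clone 16 holds 9, of which 7 are other probes, not named in the supplement's gene groups. Of these 7, 5 were tested, and their r with TDO2 ran from -0.73 to 0.78, with none beyond 0.9 in either direction. Among them 1 unnamed probe was called higher in clone 16 here, as were 0.127% of all tested probes. Since the study listed these probes as higher in clone 16 on the same arrays, the call is no independent evidence. The called probe was well above background only on the 4 arrays of clone 16. It read 9.52, 9.90, 7.31 and 8.96 in clone 16 (replicates 3, 5, 7 and 9), against 3.79 to 3.83 in W (log2 difference 5.11, limma adjusted p = 8.4e-05), and 3.78 to 4.87 in T+ and clone 17. It therefore separated clone 16 from T+ replicate 5 and clone 17 replicate 5, which TDO2 did not.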

How the data were processed

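Arrays were read with Agilent Feature Extraction 10.5, per the submitters' processing notes. The authors deposited the spot intensity of each array (background-corrected processed signal) and a table of log2 values, quantile normalized and centred on each probe's median. Outlier spots were set to missing, log2 processed signals (floor 1) of a probe's spots were averaged and the arrays quantile normalized. Probes above the 95th percentile of negative controls on at least 4 arrays were tested (17286, of which 17270 had a value on every array). limma 3.58.1 in R 4.3.3 fitted 1 model to 16 arrays, two-sided, with Benjamini-Hochberg adjustment over tested probes. The precision is limited by 4 animals per clone. Single-probe tests were exact permutations. The alternatives, whose effect is given separately, changed normalization, background correction, filter, model, blocks and arrays. The 2 probes, the lists and the rule for named probes (5 highest and lowest r, at most 2 unnamed probes printed a side; 3 highest and lowest named) were chosen with earlier results of these data known. Scripts were tested on simulated data. No PCR values were used.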

Additional observations from a re-analysis of the deposited data

Results flagged for a closer look

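For the 2 probes, 1 animal lay far from the other 3 of its clone by Dixon's test at its 95% level in 3 of 8 groups of 4 animals. The 8 groups are the same 16 animals seen with 2 probes, and T+ replicate 5 was flagged for both. Most of the values were at background, so the test's usual rate of about 1 in 20 cannot be applied to this count. TDO2 in T+ was 6.93 in replicate 5, against 3.78 to 3.83 in the other 3 animals (log2). TDO2 in clone 17 was 6.67 in replicate 5, against 3.80 to 3.87. Kynurenine formamidase in T+ was 7.09 in replicate 5, against 3.71 to 4.00. HMG-CoA reductase in T+ was 3.81 in replicate 5, against 6.22 to 6.53, and is 1 of 6 named followers chosen for their r with TDO2 on the same arrays, so no chance rate applies to it.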

How the results depend on the processing

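For TDO2 in clone 16 against W, 26 of 32 alternatives stayed on the same side of the threshold and all kept the direction. It was called with only the compared clones in the model (2.45, limma adjusted p = 0.0141) and with array weights (2.36, adjusted p = 0.0106). It was also called without T+ replicate 5 and clone 17 replicate 5 together (2.45, adjusted p = 0.000432). The exact permutation test (2.45, p = 0.0286) was past the threshold only unadjusted. Its p was the smallest that the design allows, and 0.286 after adjustment over the 10 comparisons of the 2 probes. Leaving out 1 animal gave 2.18 to 2.82, called only without T+ replicate 5 (adjusted p = 0.0329). With the replicate block the difference of 2.45 was also called (adjusted p = 0.0357). The labels do not say what the number marks. Same-numbered animals deviated together in 14 of 24 pairs (r over 0.1), and r of the 24 pairs ran from -0.35 to 0.80. Their mean r was 0.17, against -0.041 for other pairs. By number, the mean r ran from 0.093 for number 3 to 0.27 for number 5. For 9 of 16 animals the best match in the other clones had the same number. Since its meaning is not given, the number was not in the main model, whose p-values take no account of anything that same-numbered animals share. The methods' ANOVA with Dunnett's test gave a Dunnett p of 0.0257 but an adjusted ANOVA p of 0.326, and normexp correction lowered the difference to 1.002.

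Leaving out 1 animal gave -0.024 to 1.03 for T+ against W and -0.0073 to 0.95 for clone 17 against W, the sign turning without replicate 5 of that clone. Without both animals the values were -0.024 and -0.0073. Clone 16 against clone 17 gave 1.48 to 2.46 without 1 animal, called only without clone 17 replicate 5 (limma adjusted p = 0.0329). It was also called with array weights (2.25, adjusted p = 0.000744) and without both animals (2.46, adjusted p = 0.000246). The bi-allelic clones against T+ gave 0.46 to 1.60 without 1 animal, and were called with array weights (1.12, adjusted p = 0.0403) and without both animals (1.24, adjusted p = 0.0214). Kynurenine formamidase did not pass the filter, so most of its 155 alternatives over the 5 differences gave no p-value and could give no call. Only the fits without the filter and the exact permutation tests gave p-values, and none of these was past the threshold. The correlation of the 2 probes was 0.83 to 0.996 without 1 animal and 0.23 without both.

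The 926 and 764 probes that follow TDO2 became 481 and 178 with normexp correction, 138 and 34 by Spearman's rho, 332 and 121 over all 16 arrays, 2094 and 1549 at a threshold of 0.8, and 311 and 190 within the 6 animals with a positive first score, a setting chosen after seeing the data. The cause of these shifts was not tested. Signal over background limits these values, since both probes were at background in most animals, where their values have no order.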
